A study of Salmo salar with 26 samples.

Results

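Aminoacyl-tRNA synthetases were described in the lens transcriptome of Atlantic salmon (Salmo salar). They were taken as the unigenes, which are transcript contigs assembled from the reads, whose best protein hit is named as a tRNA synthetase or tRNA ligase. This gave 58 of 26681 unigenes. Of these, 43 were cytosolic enzymes, counting 12 whose hit states no compartment, 12 were mitochondrial enzymes and 3 were proteins that carry a synthetase domain without being named as enzymes. RNA came from the lenses of 26 fish, each of which gave 1 library. The groups were triploids with cataract (3N+, n = 8), triploids without cataract (3N-, n = 6), diploids with cataract (2N+, n = 6) and diploids without cataract (2N-, n = 6). Fish were grouped by ploidy and cataract state. The labels name no other treatment, and they give a weight and a length for each fish but no age.

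Aminoacyl-tRNA synthetases join each amino acid to its transfer RNA and so supply the charged tRNAs that ribosomes read. In animal cells most are encoded in the nucleus as separate cytosolic and mitochondrial enzymes, and several of the cytosolic ones sit together in a multisynthetase complex. In the lens, protein synthesis is carried by the epithelium and the young fibre cells, since mature fibres lose their nuclei and organelles. Histidine supply is tied to cataract in farmed salmon, so the enzyme that charges histidine is given in full.

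The libraries held 9756931 to 11950478 reads on unigenes, totals that were recovered from the RPKM values. Levels are RPKM, reads per kilobase of contig scaled to the depth of the library. Synthetases took a small share of the reads. The 43 cytosolic unigenes held 0.0944 ± 0.0156% of reads in 3N+, 0.0944 ± 0.0107% in 3N-, 0.103 ± 0.014% in 2N+ and 0.0816 ± 0.0109% in 2N- (SD over lenses). The 12 mitochondrial unigenes held 0.00181 ± 0.00021% in 3N+, 0.00202 ± 0.00031% in 3N-, 0.00194 ± 0.00025% in 2N+ and 0.00152 ± 0.00024% in 2N-. Connexin 43, a gap junction protein of the lens epithelium, was between 0.42 and 7.89 RPKM in 12 lenses and between 23.7 and 109.5 RPKM in 14, and both kinds of lens occurred in every group. The 20 lens fibre markers summed to 7178 to 9420 RPKM in 3N+, 8198 to 10023 RPKM in 3N-, 6599 to 8368 RPKM in 2N+ and 8059 to 9531 RPKM in 2N-, and the 1 leukocyte marker unigene had a median of 0. Because each library mixes the cells of a lens sample, fewer cells of a type and less RNA per cell cannot be told apart.

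The cytosolic unigenes covered 18 kinds of enzyme, and the alpha chain of phenylalanyl-tRNA synthetase had the highest level among them. This chain (CL3437.Contig2), which carries the catalytic site, averaged 50.4 RPKM over the 26 lenses, and the beta chain of that enzyme was split over 3 contigs at 21.1, 14.2 and 2.51 RPKM (Unigene7580, Unigene7579 and Unigene7578). Aspartyl-tRNA synthetase (CL157.Contig1), a member of the multisynthetase complex, averaged 42.8 RPKM. Histidyl-tRNA synthetase (Unigene3964), found as 1 contig of 2005 bases, averaged 41.1 RPKM. Glutaminyl-tRNA synthetase (CL3879.Contig1) averaged 27.8 RPKM and tryptophanyl-tRNA synthetase (Unigene3062) 27.3 RPKM. Glycyl-tRNA synthetase (Unigene2951) averaged 23.4 RPKM and cysteinyl-tRNA synthetase (CL3670.Contig1) 19.3 RPKM. The bifunctional enzyme that charges both glutamate and proline (CL2843.Contig1) averaged 18.6 RPKM over a contig of 5317 bases. Threonyl-tRNA synthetases were spread over 10 contigs, of which the longest (CL294.Contig1, 2735 bases) averaged 6.97 RPKM. Some of the 10, such as Unigene5902, have a hit named as a probable threonyl-tRNA synthetase 2, and the others do not. By its most abundant unigene, lysyl-tRNA synthetase was the lowest of these kinds, at 0.403 RPKM (CL2977.Contig1), with 0.284 RPKM for CL2977.Contig3. These contigs ran to 2144 and 1934 bases. A contig of an enzyme whose best hit is not named as one would be missed by the rule. Contigs of 1 enzyme may be pieces of a gene or copies of it, which was not examined, and where they are their values are uncertain, since reads may be divided among them.

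**Figure D1:**
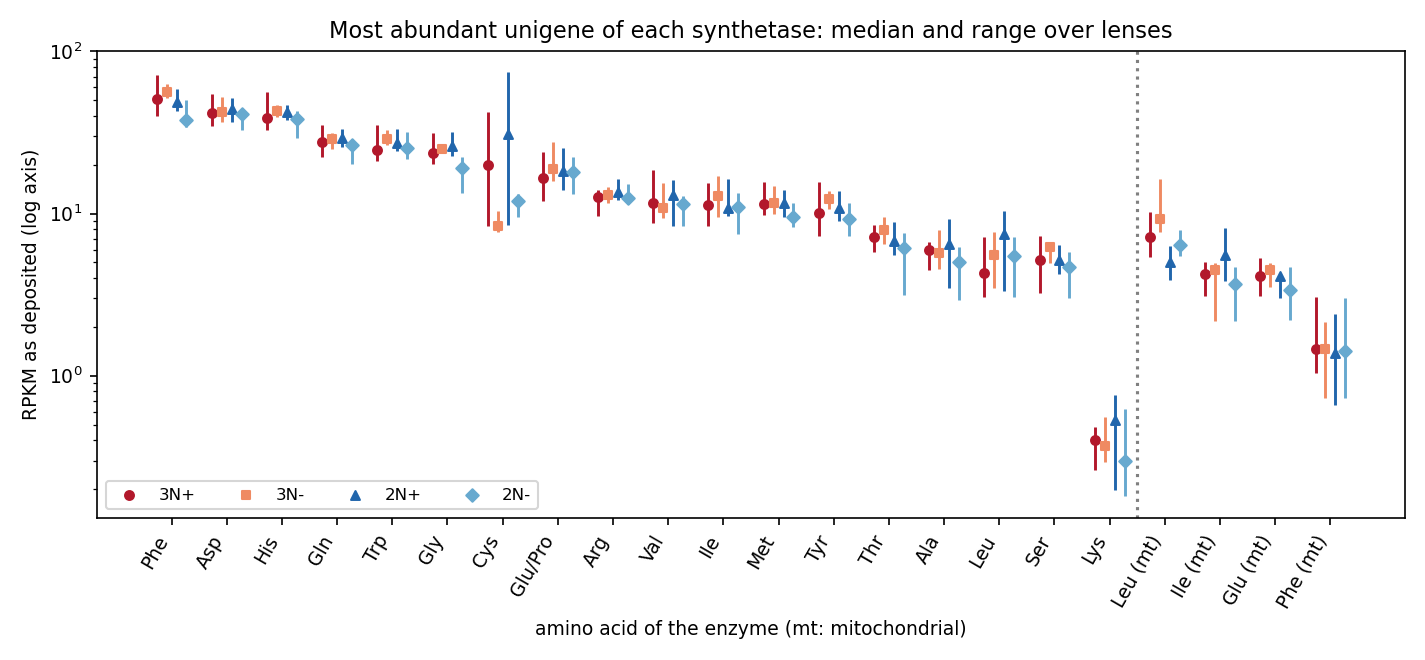
Level of the most abundant unigene of each synthetase in RPKM as deposited (log axis), ordered by mean level, with cytosolic enzymes left of the dotted line and mitochondrial ones (mt) right of it. Symbols are group medians and lines run from the lowest to the highest lens of 3N+, 3N-, 2N+ and 2N-; the cysteinyl enzyme has the widest range in both cataract groups, and the lysyl enzyme lies below 1 RPKM in every lens.

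Among the 17 members that averaged at least 10 RPKM, the coefficient of variation over the 26 lenses ran from 10.9% for arginyl-tRNA synthetase (CL3406.Contig1) to 23.4% for the glutamyl-prolyl enzyme, with cysteinyl-tRNA synthetase as the exception at 79%. The mitochondrial enzymes were low. Leucyl-tRNA synthetase (Unigene9549) averaged 7.42 RPKM, isoleucyl-tRNA synthetase (Unigene11701) 4.30 RPKM, and 2 contigs of glutamyl-tRNA synthetase 3.95 RPKM (Unigene1264) and 3.61 RPKM (Unigene12217). Phenylalanyl-tRNA synthetase of mitochondria was present as 2 contigs of 1.65 and 1.45 RPKM. Of the 58 members, 44 had enough reads to be tested (38 cytosolic, 4 mitochondrial and 2 domain proteins), and the 14 left out had contigs with a median of 1 to 6 reads per lens.

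Cataract was asked about first in each ploidy and then as the average of both. Cysteinyl-tRNA synthetase (CL3670.Contig1) was higher in cataract lenses and mitochondrial leucyl-tRNA synthetase (Unigene9549) was lower. These were the 2 of 44 tested members that passed limma's test in the average (1 rose and 1 fell), where 2.3% of the 19532 unigenes tested passed, 0.799% higher and 1.51% lower. The other 42 members did not pass. None of the 44 passed in diploid or in triploid cataract alone, where 1.1% and 0.0819% of all unigenes passed; 7 and 5 members had an unadjusted p below 0.05, against 12.4% and 8.65% of all unigenes, and limma's voom made no call either. The change was positive for 18 of 44 members in the average, 22 in diploids and 12 in triploids, against 53.5%, 54.3% and 49.7% of all unigenes. Without the scaling factors the counts were 31, 39 and 14 of 44, against 78.7%, 84.1% and 55.3% of all unigenes, so that the sign of a small change depends on the scaling. The factors averaged 0.988 in 3N+, 0.966 in 3N-, 1.16 in 2N+ and 0.949 in 2N-, and the median of all unigenes in diploid cataract was 0.027 with them and 0.284 without.

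Cysteinyl-tRNA synthetase charges cysteine, the amino acid whose thiol is also the active group of glutathione. Its level was 42.6, 12.6, 17.9, 22, 8.40, 34.6, 22.5 and 14.1 RPKM in the 3N+ lenses, against 10.4, 9.65, 8.50, 8.34, 8.30 and 7.74 RPKM in the 3N- lenses. In diploids it was 37.1, 25.3, 36.3, 8.53, 74.7 and 21.3 RPKM in the 2N+ lenses, against 12.0, 9.5, 13.2, 11.8, 12.8 and 11.9 RPKM in the 2N- lenses. Thus 7 of 8 triploid and 5 of 6 diploid cataract lenses lay above every clear lens of their ploidy, while 3N+ replicate 5 lay within the range of 3N- and 2N+ replicate 4 lay below every 2N- lens. The clear lenses were close together and the cataract lenses were spread over a wide range. On the log2 scale of scaled RPKM plus 0.5 it rose by 1.0 ± 0.25 (SE; limma adjusted p = 0.0318) in the average. The triploid difference was 1.07 ± 0.34 (limma adjusted p = 0.3) and the diploid difference 0.93 ± 0.37 (limma adjusted p = 0.264) on the scaled values. On RPKM as deposited the diploid difference was 1.21 ± 0.36 and passed (limma adjusted p = 0.0416), as 1 of 3 of the 44 members, where 6.73% of all unigenes passed. The triploid minus the diploid difference was 0.14 ± 0.50 (limma adjusted p = 0.997). Over 26 fits that each left out 1 library the change stayed between 0.85 and 1.1, but the call was lost in 7 of them, without 2N- replicates 2 or 5, 2N+ replicates 3 or 5, 3N- replicates 4 or 6, or 3N+ replicate 6 (limma adjusted p = 0.05 to 0.0555).

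**Figure D2:**
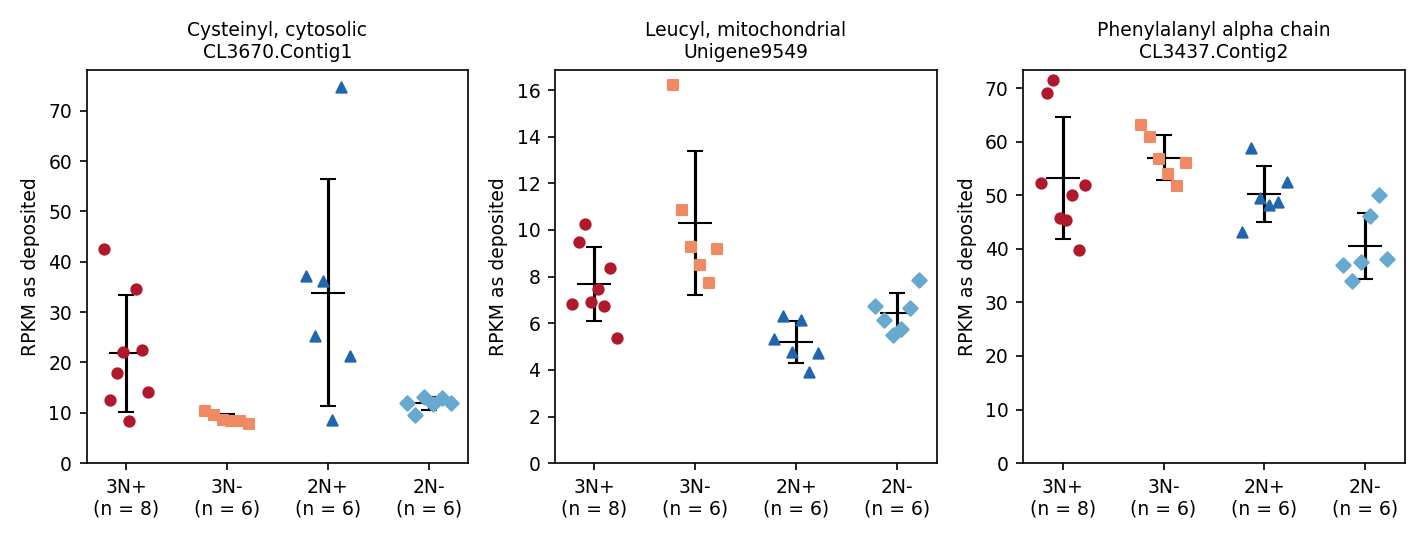
RPKM as deposited of cysteinyl-tRNA synthetase, mitochondrial leucyl-tRNA synthetase and the alpha chain of phenylalanyl-tRNA synthetase, with 1 point per lens in the groups 3N+, 3N-, 2N+ and 2N- and bars for mean and SD. The cysteinyl enzyme reaches 42.6 RPKM in 3N+ and 74.7 RPKM in 2N+ and stays at or below 13.2 RPKM in clear lenses; the leucyl enzyme is highest in 3N- and lowest in 2N+.

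A second cysteinyl contig of the same cluster (CL3670.Contig2, 2600 bases) was far less abundant, at 0.698 ± 0.315 RPKM in 3N+, 0.392 ± 0.091 RPKM in 3N-, 0.669 ± 0.194 RPKM in 2N+ and 0.379 ± 0.063 RPKM in 2N- (SD). As deposited, 6 of 8 triploid and 6 of 6 diploid cataract lenses exceeded every clear lens of their ploidy, and 4 of 8 and 2 of 6 did so on the scaled values. How many of all unigenes separate as fully was not counted. The scaled change of this contig, 0.32 ± 0.11, did not pass (limma adjusted p = 0.144). On RPKM as deposited it did (0.40 ± 0.10, limma adjusted p = 0.0177), as 1 of 2 members in the cataract average on that scale, where 7.33% of all unigenes passed.

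The 5 unigenes of keratins 8 and 18, taken here as markers of surface epithelium, reached their highest levels in cataract lenses that were also high in the cysteinyl enzyme. Their summed level was 13.2 to 620 RPKM in 3N+, 9.88 to 41.7 RPKM in 3N-, 10.1 to 248 RPKM in 2N+ and 11.1 to 39.2 RPKM in 2N-. All 5 had a positive change in the average cataract comparison, against 53.5% of all unigenes. None of them passed limma's test, where 2.3% of all unigenes did, and 4 had an unadjusted p below 0.05, against 14.4%; the smallest adjusted p was 0.0739. On RPKM as deposited 1 of them passed, against 7.33% of all unigenes. Within groups all 5 had a positive slope on connexin 43 on the scaled values and as deposited, against 46.8% and 85.6% of all unigenes. As deposited 3 of the 5 passed limma's test, where 50.1% of all unigenes passed with a positive slope. The median slopes were 0.19 and 0.24 per doubling of connexin 43, against -0.0073 and 0.067 for all unigenes. Whether these keratins came from lens epithelium or from other tissue was not tested. The lens with the highest cysteinyl value (2N+ replicate 5, 74.7 RPKM) had 248 RPKM of keratin, whereas 2N+ replicate 1, at 37.1 RPKM of the cysteinyl enzyme, had 10.1 RPKM. Likewise 2N+ replicate 2, 3N+ replicate 8 and 3N+ replicate 2 exceeded every clear lens of their ploidy, at 25.3, 14.1 and 12.6 RPKM of the enzyme. Their keratin was 33.9, 16.4 and 13.2 RPKM, within the range of clear lenses. By contrast, 2N+ replicate 4 and 3N+ replicate 5 were low in both. They had 8.53 and 8.40 RPKM of the enzyme and 10.8 and 37.8 RPKM of keratin. Which cells made the cysteinyl enzyme was not tested. With the summed keratin as a covariate, an alternative added after the data had been seen, the cysteinyl change was 0.59 and did not pass (limma adjusted p = 0.366). Erythrocyte markers were likewise spread widely, from 7.89 to 691 RPKM in 3N+, 6.97 to 2028 RPKM in 3N-, 16.6 to 1374 RPKM in 2N+ and 4.78 to 95.7 RPKM in 2N-. They summed to 1374 and 412 RPKM in 2N+ replicates 1 and 2, and to 7.89 and 84.2 RPKM in 3N+ replicates 8 and 2. The lens with 2028 RPKM (3N- replicate 5) had 8.30 RPKM of the cysteinyl enzyme. The part of these markers in the result was not tested. Retina markers were also spread widely, from 2.41 to 49.9 RPKM in 3N+, 0.785 to 292 RPKM in 3N-, 0.895 to 439 RPKM in 2N+ and 1.36 to 28.9 RPKM in 2N-. In lenses rich in connexin 43 the cysteinyl enzyme was 8.40 to 34.6 RPKM in 3N+ (3 lenses), 7.74 to 10.4 RPKM in 3N- (3), 21.3 to 74.7 RPKM in 2N+ (4) and 11.9 to 13.2 RPKM in 2N- (4). In lenses poor in connexin 43 it was 12.6 to 42.6 RPKM in 3N+ (5 lenses), 8.30 to 9.65 RPKM in 3N- (3), 8.53 and 37.1 RPKM in 2N+ (2) and 9.5 and 11.8 RPKM in 2N- (2). Body weight was 270 to 885 g in 3N+, 280 to 700 g in 3N-, 460 to 840 g in 2N+ and 110 to 345 g in 2N-, so that every 2N+ fish was heavier than every 2N- fish. With log2 body weight in the model the cysteinyl change was 1.20 (limma adjusted p = 0.0596).

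**Figure D3:**
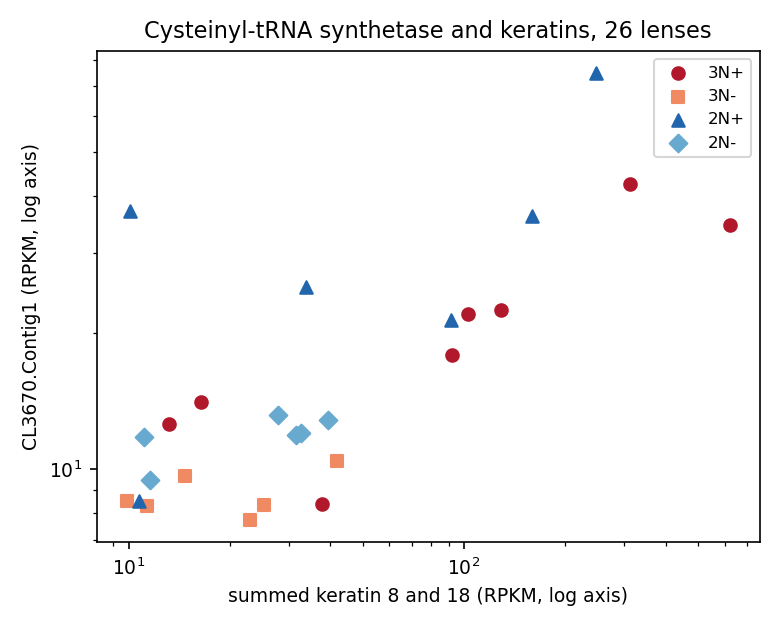
Cysteinyl-tRNA synthetase (CL3670.Contig1) against the summed level of 5 keratin 8 and 18 unigenes, both in RPKM as deposited on log axes, with 1 point per lens. The lenses above the 41.7 RPKM of keratin that no clear lens exceeds hold 17.9 to 74.7 RPKM of the cysteinyl enzyme. Below that level, 1 diploid cataract lens has 37.1 RPKM of the enzyme at 10.1 RPKM of keratin. Another (2N+ replicate 2) has 25.3 RPKM at 33.9 RPKM of keratin. 3N+ replicates 8 and 2 have 14.1 and 12.6 RPKM at 16.4 and 13.2 RPKM of keratin. 2N+ replicate 4 and 3N+ replicate 5 have 8.53 and 8.40 RPKM at 10.8 and 37.8 RPKM of keratin.

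Mitochondrial leucyl-tRNA synthetase charges leucine for the proteins made inside mitochondria. Its level was 6.84, 9.47, 10.3, 6.91, 7.45, 6.75, 8.36 and 5.37 RPKM in 3N+, against 16.2, 10.8, 9.25, 8.48, 7.71 and 9.20 RPKM in 3N-. In diploids it was 5.34, 6.31, 4.75, 6.14, 3.92 and 4.74 RPKM in 2N+, against 6.73, 6.13, 5.49, 5.75, 6.66 and 7.87 RPKM in 2N-. Of the cataract lenses, 5 of 8 triploid and 4 of 6 diploid ones lay below every clear lens of their ploidy, and the others overlapped with them. In the average of both ploidies it fell by 0.48 ± 0.12 (log2, SE; limma adjusted p = 0.0241), with -0.42 in triploids (limma adjusted p = 0.42) and -0.55 in diploids (limma adjusted p = 0.124). The fall was 0.34 and did not pass on RPKM as deposited (limma adjusted p = 0.0669), nor with body weight (-0.41, limma adjusted p = 0.228) or the keratins (-0.37, limma adjusted p = 0.267) in the model. It was also lost without 2N- replicate 2, 2N+ replicates 3 or 5, or 3N- replicate 2 (limma adjusted p = 0.0504 to 0.0529). The contig is 689 bases long. Of the further contigs with the same name, Unigene12699 (240 bases) had 1.73 ± 0.76 RPKM in 3N+, 2.28 ± 0.67 RPKM in 3N-, 1.75 ± 0.56 RPKM in 2N+ and 1.23 ± 0.95 RPKM in 2N- (SD). Its mean was lower with cataract in triploids but higher in diploids. CL3113.Contig2 (409 bases) and CL3113.Contig1 (318 bases) averaged 0.439 and 0.24 RPKM over the 26 lenses. These further contigs had too few reads for a test.

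The enzymes of the multisynthetase complex showed small cataract differences. Of 15 tested unigenes none passed limma's test (1 had an unadjusted p below 0.05, and voom called none of them), 13 had a negative average change and the median was -0.11, against 0.015 for all unigenes. On RPKM as deposited the median of these 15 turned to 0.052, with 0.16 for all unigenes, so that no direction is given for them. Aspartyl-tRNA synthetase (CL157.Contig1) was 43.4 ± 6.69 RPKM in 3N+, 43 ± 5.56 RPKM in 3N-, 44.5 ± 6.29 RPKM in 2N+ and 39.9 ± 3.81 RPKM in 2N- (SD), a difference of -0.08 ± 0.07 in the cataract average (limma adjusted p = 0.673). Glutaminyl-tRNA synthetase (CL3879.Contig1) was 27.5 ± 4.42 RPKM in 3N+, 28.7 ± 2.13 RPKM in 3N-, 29.1 ± 2.70 RPKM in 2N+ and 25.8 ± 3.27 RPKM in 2N- (-0.11 ± 0.07, limma adjusted p = 0.579). The scaffold proteins p38 and p43, which hold the complex together, stood at -0.12 ± 0.10 (Unigene7904, limma adjusted p = 0.652) and 0.00 ± 0.08 (Unigene7748, limma adjusted p = 0.997).

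Histidyl-tRNA synthetase (Unigene3964) did not pass in any comparison between groups. It was 43.4, 55.3, 55.8, 34.6, 38.2, 35.3, 32.6 and 39.4 RPKM in 3N+, against 46.6, 44.4, 41.5, 44.9, 39.3 and 40.9 RPKM in 3N-. In diploids it was 37.8, 46.5, 39.8, 42.3, 42.4 and 45.2 RPKM in 2N+, against 36.7, 29.2, 39.6, 43.1, 40.9 and 32.8 RPKM in 2N-. The ranges of all 4 groups overlapped, and the widest range was that of 3N+. On the scaled values the changes were -0.10 ± 0.13 in triploid cataract (limma adjusted p = 0.924) and -0.08 ± 0.14 in diploid cataract (limma adjusted p = 0.899). As deposited they were -0.06 ± 0.11 in triploids (limma adjusted p = 0.999) and 0.20 ± 0.12 in diploids (limma adjusted p = 0.287), so that the diploid sign turned without the scaling.

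No other enzyme passed with cataract on the scaled values. In diploids on RPKM as deposited, however, the glycyl enzyme and a mitochondrial one passed, where 6.73% of all unigenes did. The hit of the glycyl enzyme states no compartment. Glycyl-tRNA synthetase (Unigene2951) was 20.2 to 31.2 RPKM in 3N+, 23.6 to 25.9 RPKM in 3N-, 22.8 to 31.7 RPKM in 2N+ and 13.3 to 22.2 RPKM in 2N-. As deposited, all 6 lenses of 2N+ lay above all 6 of 2N-, and 4 of 6 did so on the scaled values. The share of all unigenes that separate in this way was not counted. The glycyl enzyme passed in diploid cataract as deposited (0.53 ± 0.11, limma adjusted p = 0.007), but not on the scaled values (0.25 ± 0.13, limma adjusted p = 0.467). Mitochondrial isoleucyl-tRNA synthetase (Unigene11701) also passed as deposited only. It was 3.82 to 8.15 RPKM in 2N+ and 2.17 to 4.71 RPKM in 2N-, which overlap, with changes of 0.70 ± 0.21 as deposited (limma adjusted p = 0.0411) and 0.44 ± 0.16 scaled (limma adjusted p = 0.209). A short threonyl contig (Unigene10491, 290 bases) had 5.88 ± 1.97 RPKM in 2N+ and 3.12 ± 1.04 RPKM in 2N- (SD), a scaled change of 0.55 ± 0.19 (limma adjusted p = 0.16). Tryptophanyl-tRNA synthetase (Unigene3062) stood at -0.18 ± 0.09 in the cataract average (limma adjusted p = 0.402). Among domain proteins, an alanyl-tRNA synthetase domain protein (Unigene15672, 322 bases) had 3.21 ± 1.54 RPKM in 3N+ and 1.51 ± 0.39 RPKM in 3N- (0.78 ± 0.28, limma adjusted p = 0.358).

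The 3 contigs of the phenylalanyl beta chain, the partner of the alpha chain in the active enzyme, did not share a sign with cataract; the changes given here are on the scaled values. The most abundant (Unigene7580) was 20.2 ± 5.13 RPKM in 3N+, 24 ± 5.22 RPKM in 3N-, 21 ± 3.1 RPKM in 2N+ and 19.7 ± 2.8 RPKM in 2N- (SD), a cataract average of -0.24 ± 0.11 (limma adjusted p = 0.296). The least abundant (Unigene7578, 475 bases) was 3.14 ± 0.82 RPKM in 3N+, 2.37 ± 0.64 RPKM in 3N-, 3.09 ± 2.16 RPKM in 2N+ and 1.26 ± 0.43 RPKM in 2N- (0.46 ± 0.19, limma adjusted p = 0.235). Neither passed, in cataract or in ploidy. Valyl-tRNA synthetase (CL1898.Contig1), one of the longest contigs with 4116 bases, was 12.5 ± 3.54 RPKM in 3N+, 11.6 ± 2.37 RPKM in 3N-, 12.7 ± 2.82 RPKM in 2N+ and 11 ± 2 RPKM in 2N- (-0.02 ± 0.13 with cataract, limma adjusted p = 0.976). Cytosolic isoleucyl-tRNA synthetase (Unigene9133, 4432 bases) was 11.3 ± 2.72 RPKM in 3N+, 12.9 ± 2.81 RPKM in 3N-, 12.3 ± 3.19 RPKM in 2N+ and 10.8 ± 2.16 RPKM in 2N- (-0.17 ± 0.09, limma adjusted p = 0.399). Arginyl-tRNA synthetase (CL3406.Contig1), the steadiest of the abundant enzymes, was 12.3 ± 1.47 RPKM in 3N+, 13.1 ± 1.1 RPKM in 3N-, 13.9 ± 1.49 RPKM in 2N+ and 13.1 ± 1.38 RPKM in 2N- (-0.16 ± 0.09, limma adjusted p = 0.417).

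**Figure D4:**
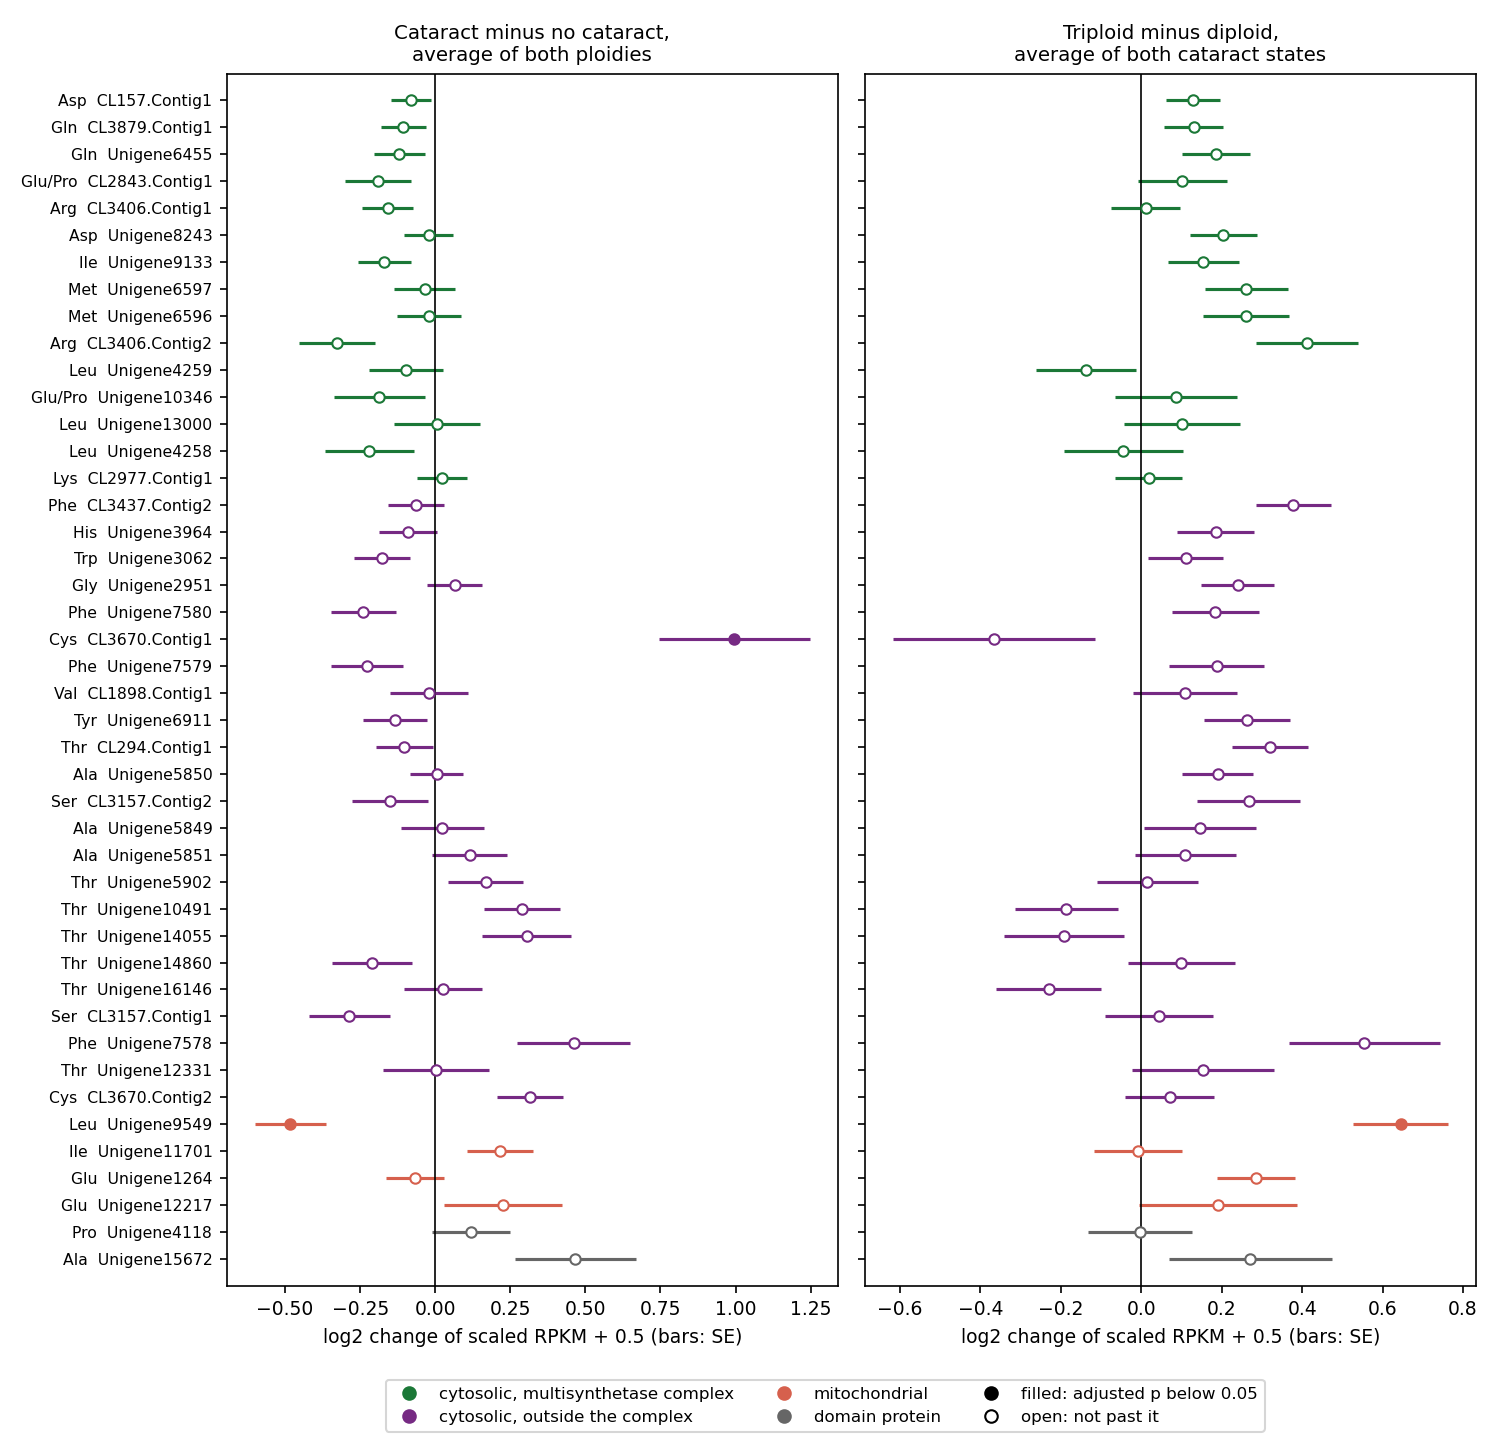
Log2 change ± SE of the 44 tested members, cataract minus no cataract on the left and triploid minus diploid on the right, on scaled RPKM plus 0.5. Filled points passed limma's adjusted p of 0.05, which were the cysteinyl enzyme (1.0) and mitochondrial leucyl enzyme (-0.48) with cataract and the mitochondrial leucyl enzyme (0.64) with ploidy; 36 of 44 points lie right of 0 on the ploidy side.

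Ploidy was asked about by setting triploids against diploids of the same cataract state. Mitochondrial leucyl-tRNA synthetase was higher in triploids, and it was the 1 of 44 members that passed in the average of both cataract states, where 0.174% of all unigenes passed and 0.138% passed with a higher level. With cataract it was 5.37 to 10.3 RPKM in 3N+ and 3.92 to 6.31 RPKM in 2N+, and 7 of 8 triploid lenses lay above every diploid one (5 of 8 on the scaled values). Without cataract it was 7.71 to 16.2 RPKM in 3N- and 5.49 to 7.87 RPKM in 2N-, and 5 of 6 triploid lenses did so (4 of 6 on the scaled values). It rose by 0.64 ± 0.12 in the average (log2, SE; limma adjusted p = 0.0182), with 0.71 with cataract (limma adjusted p = 0.272) and 0.58 without (limma adjusted p = 0.208). The call held in each of the 26 fits that left out 1 library (0.60 to 0.70) and under all 9 other settings of scaling, filter and model (0.53 to 0.71). The further contigs of the same name had too few reads for a test. By group means, Unigene12699 was higher in triploids without cataract but not with it.

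Most other members had a positive ploidy change on the scaled values without passing. Of the 38 cytosolic unigenes tested 32 had a positive average ploidy change, with a median of 0.13, and 3 of 4 mitochondrial ones did, with a median of 0.24; over all unigenes 49.3% were positive and the median was -0.004. On RPKM as deposited the cytosolic count was 28 of 38 and the median 0.034, against 31.1% positive and -0.092 over all unigenes. Unadjusted p-values below 0.05 were found for 14 of 44 members, against 11.6% of all unigenes. Without cataract 35 of 44 members were positive, against 50.5% of all unigenes, and 38 were as deposited, against 54.5%. With cataract 34 of 44 were positive, against 48.2% of all unigenes, and 12 were as deposited, against 18.9%, where the cytosolic median of 0.12 turned to -0.087 and that of all unigenes was -0.21. Members were not independent of each other, since they were read in the same libraries, and no test was made of the group. Ploidy groups also differed in weight, with 280 to 700 g in 3N- against 110 to 345 g in 2N-. Lenses rich in connexin 43 were 3 of 8 in 3N+, 3 of 6 in 3N-, 4 of 6 in 2N+ and 4 of 6 in 2N-. The part of weight and of connexin 43 in these signs, and in lenses of 3N- lying apart from 2N-, was not tested. In clear lenses the cysteinyl enzyme (CL3670.Contig1) went the other way, at 7.74 to 10.4 RPKM in 3N- against 9.5 to 13.2 RPKM in 2N-. As deposited 4 of 6 lenses of 3N- lay below every 2N- lens, and 6 of 6 did so on the scaled values. This difference did not pass limma's test, and the share of all unigenes that separate as fully was not counted. With cataract 1 of 8 lenses of 3N+ lay below every 2N+ lens on either scale. No member passed without cataract (0.0614% of all unigenes did) or with cataract (0% did), where 10 and 7 members had an unadjusted p below 0.05, against 9.85% and 7.63% of all unigenes, and voom made no call.

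The alpha chain of phenylalanyl-tRNA synthetase (CL3437.Contig2) came closest among the cytosolic enzymes. It was 52.2, 69.1, 71.4, 45.8, 45.4, 50.0, 39.8 and 51.8 RPKM in 3N+, against 43.2, 58.9, 49.4, 48.2, 48.7 and 52.5 RPKM in 2N+. Without cataract it was 63.0, 60.9, 56.7, 53.9, 51.6 and 56.0 RPKM in 3N-, against 37.0, 34.1, 37.6, 46, 50.0 and 38.1 RPKM in 2N-. As deposited, all 6 lenses of 3N- lay above all 6 of 2N-, whereas 3N+ and 2N+ overlapped. On the scaled values 3 of 6 lenses of 3N- lay above all of 2N-. How many of all unigenes separate in this way was not counted. The change of the alpha chain was 0.38 ± 0.09 in the average (log2, SE; limma adjusted p = 0.0867), 0.29 with cataract (limma adjusted p = 0.613) and 0.47 without (limma adjusted p = 0.198). Threonyl-tRNA synthetase (CL294.Contig1) was 7.08 ± 0.98 RPKM in 3N+, 7.93 ± 1.32 RPKM in 3N-, 6.92 ± 1.2 RPKM in 2N+ and 5.91 ± 1.49 RPKM in 2N- (SD), a ploidy average of 0.32 ± 0.09 (limma adjusted p = 0.155). Mitochondrial glutamyl-tRNA synthetase (Unigene1264) was 4.17 ± 0.92 RPKM in 3N+, 4.29 ± 0.57 RPKM in 3N-, 3.89 ± 0.49 RPKM in 2N+ and 3.39 ± 0.88 RPKM in 2N- (SD), with 0.28 ± 0.10 (limma adjusted p = 0.222). Of the other enzymes with small p-values, a second glutaminyl contig (Unigene6455) stood at 0.33 with cataract (limma adjusted p = 0.493) and glycyl-tRNA synthetase at 0.43 without cataract (limma adjusted p = 0.234).

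Whether the cataract difference depends on ploidy was asked by the interaction. No member passed, 3 had an unadjusted p below 0.05 and voom made no call; of all unigenes 0.00512% passed and 5.95% had an unadjusted p below 0.05. The members with the smallest p were an alanyl contig (Unigene5851, -0.57 ± 0.25, limma adjusted p = 0.794), the short threonyl contig (Unigene10491, -0.53 ± 0.25, limma adjusted p = 0.834) and mitochondrial isoleucyl-tRNA synthetase (-0.45 ± 0.22, limma adjusted p = 0.834).

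The related gene groups gave few calls in the same fits, where 2.3% of all unigenes passed with cataract and 0.174% with ploidy, and 14.4% and 11.6% had an unadjusted p below 0.05. For the amino acid response, the response of cells to a shortage of charged tRNA, 10 listed unigenes were tested. None of the 10 passed limma's test with cataract (1 had an unadjusted p below 0.05, and the median average change was -0.21) or with ploidy (1, and -0.15). Charged tRNA itself was not measured. Of 16 cytosolic elongation factor unigenes none passed with cataract (0 had an unadjusted p below 0.05, median 0.052) or with ploidy (1, median 0.11). Of 79 unigenes of mitochondrial translation 1 rose with cataract, the 28S ribosomal protein S29 (Unigene13149, 0.53 ± 0.14, limma adjusted p = 0.0424), and none passed with ploidy, with medians of 0.0019 and 0.066. Of 34 unigenes of tRNA maturation none passed in either average, with 4 and 6 unadjusted p-values below 0.05. On RPKM as deposited the cataract counts were 0 for the amino acid response, 4 for the elongation factors, 5 for mitochondrial translation and 2 for tRNA maturation, all higher, where 5.72% of all unigenes were called higher. The scaled medians compare with 0.015 for cataract and -0.004 for ploidy over all unigenes.

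Members were also followed along connexin 43 within groups, as a slope per doubling of that epithelial transcript. Calls were common, at 39.3% of all unigenes, with 19.6% higher and 19.7% lower. Of 44 members 17 passed, 15 with a negative and 2 with a positive slope. An unadjusted p below 0.05 was found for 21 members, against 47.8% of all unigenes, and 16 slopes were positive, against 46.8% of all unigenes. The directions rested on the scaling, since on RPKM as deposited 42 of 44 slopes were positive, against 85.6% of all unigenes, and 20 of 44 passed, all positive, against 51.6% of all unigenes, 50.1% with a positive slope. Of the 15 negative slopes 13 were positive as deposited, and the median slope over all unigenes was -0.0073 scaled and 0.067 as deposited. The scaling factors themselves followed connexin 43, at 1.0005 to 1.41 in the 14 lenses rich in it and 0.706 to 0.962 in the 12 poor in it. Scaling thus lowered the RPKM of the rich lenses and raised that of the poor ones. The 2 positive slopes passed on both scales, for a leucyl contig (Unigene4259, 0.06 ± 0.03 scaled, limma adjusted p = 0.0454) and the short threonyl contig (Unigene10491, 0.08 ± 0.02, limma adjusted p = 0.0115). Histidyl-tRNA synthetase had a negative scaled slope that passed (-0.07 ± 0.02, limma adjusted p = 0.00156) and a slope of 0.02 as deposited that did not (limma adjusted p = 0.398). The lowest slopes were those of a mitochondrial glutamyl contig of 214 bases (Unigene12217, -0.15 ± 0.03, limma adjusted p = 0.000831; -0.07 as deposited, limma adjusted p = 0.0835), a seryl contig (CL3157.Contig2, -0.08 ± 0.02, limma adjusted p = 0.0081) and a methionyl contig (Unigene6597, -0.08 ± 0.02, limma adjusted p = 0.0012). The last of these stood at 11.9 ± 1.82 RPKM in 3N+, 12.1 ± 1.74 RPKM in 3N-, 11.7 ± 1.87 RPKM in 2N+ and 9.62 ± 1.27 RPKM in 2N- (SD). Since connexin 43 split the lenses into a low and a high set with none between 7.89 and 23.7 RPKM, the slope mostly sets those 2 sets against each other.

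**Figure D5:**
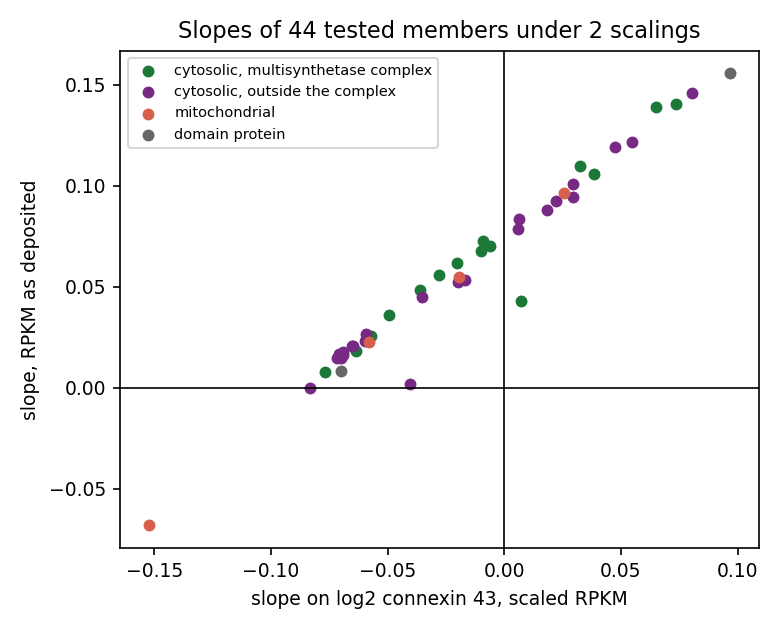
Slope of each of the 44 tested members on log2 connexin 43 within groups, with scaled RPKM on the horizontal axis and RPKM as deposited on the vertical axis. Points keep nearly the same order but shift upward, so that 28 slopes below 0 on the scaled values become 2 as deposited.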

How the data were processed

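Lens RNA of 26 fish was poly(A) selected and sequenced, per the labels' protocols. The authors deposited 1 table of RPKM values for 26681 unigenes with their best protein hits, of which 13784 had one. No assembler, aligner or build is given in the sources used here. Names come from those hits, and no reference sequence was matched. Whole reads were recovered from RPKM for 100% of unigenes within 0.01 reads, and the median was 14 reads for a unigene in a library, which limits precision for low unigenes. Library totals were recovered in the same step, and the summed reads of unigenes lay within 67 of each total. Contig lengths were recovered too, as the shortest whole number of bases from 200 up that makes all reads whole.

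Unigenes with over 10 reads, after scaling each library to the median library size, in at least 6 libraries and at least 15 reads in all were tested (19532). Libraries were scaled by TMM (trims 0.3 and 0.05). The test was limma 3.58.1 in R 4.3.3 (empirical Bayes, trend, robust) on log2 of scaled RPKM plus 0.5, with 4 group means, two-sided, at a Benjamini-Hochberg adjusted p of 0.05 across every tested unigene. Alternatives were no scaling, another pseudocount or filter, voom, a replicate block, a covariate (body weight, connexin 43 or keratins) and leaving out each library. Scripts for recovery and testing were tested on simulated data. Group levels and counts of lenses above or below others use RPKM as deposited unless scaled values are named. Those counts of lenses were made for members only, so no share over all unigenes stands beside them. The p-values measure the spread between fish.

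Mitochondrial members are those whose hit says so. The glycyl and lysyl unigenes are among those counted as cytosolic although their hits state no compartment. Members were named if they passed a contrast, had 1 of the 3 smallest p-values where fewer than 3 passed, were among the 5 cytosolic or 3 mitochondrial ones of highest mean RPKM, were histidyl enzymes, or had 1 of the 3 highest or lowest slopes past the threshold; 20 were named so. The others named (lysyl, arginyl, valyl, cytosolic isoleucyl, beta chain and bifunctional contigs, further contigs of named enzymes, and list genes) were chosen after their values were seen. The members and gene lists were chosen with earlier results of these data known.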

Additional observations from a re-analysis of the deposited data

Results flagged for a closer look

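Among 80 sets of 1 named member in 1 group, 4 held a lens far from the others of its group by Dixon's test, about the 1 in 20 that chance gives. Mitochondrial leucyl-tRNA synthetase (Unigene9549) was 16.2 RPKM in 3N- replicate 1, with the next lens at 10.8 RPKM; without that lens its ploidy change was 0.60 (limma adjusted p = 0.0254). Cysteinyl-tRNA synthetase (CL3670.Contig1) was 9.5 RPKM in 2N- replicate 2, with the next lens at 11.8 RPKM. Glycyl-tRNA synthetase (Unigene2951) was 31.2 RPKM in 3N+ replicate 3, with the next lens at 25 RPKM. A mitochondrial glutamyl contig (Unigene12217, 214 bases) was 7.85 RPKM in 3N+ replicate 4, with the next lens at 4.24 RPKM.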

How the results depend on the processing

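The count of 2 members called in the cataract average became 1 with the replicate block (cysteinyl change 1.0, limma adjusted p = 0.0878), 0 with body weight and 0 with the keratin covariate, which was chosen after seeing the data. It was 2 under the other 6 settings, though on RPKM as deposited the pair was the 2 cysteinyl contigs and no longer the leucyl one. The diploid cataract count of 0 became 3 on RPKM as deposited, where 6.73% of all unigenes passed, and 2 with connexin 43 in the model, where 4.55% did. The ploidy average of 1 became 2 with the keratin covariate, which added the phenylalanyl alpha chain. The 17 connexin 43 slopes became 9 with the replicate block, where 31.1% of all unigenes passed. Leaving out 1 library gave 0 to 2 calls in the cataract average, 0 to 1 in diploid cataract, 1 to 2 in the ploidy average, 0 to 1 for ploidy with cataract, 13 to 18 slopes, and 0 elsewhere. The libraries that changed the count of 2 in the cataract average are those named with the cysteinyl and leucyl results. Diploid cataract gained 1 call without 2N+ replicate 1 or 4, ploidy with cataract 1 without 2N+ replicate 4, and the ploidy average 1 without 2N- replicate 4. The labels do not say whether equal replicate numbers mark a shared origin. After removal of group means, 18 of 36 same-numbered pairs correlated above 0.1, and 3 of 26 libraries were closest to their own number. Replicates 7 and 8 of 3N+ have no same-numbered partner. These correlations also carry the differences in connexin 43, so they cannot exclude pairing. Beside those above, the block changed no call between groups. Contigs of few reads limit the mitochondrial enzymes.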

Other observations

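The table's pathway column gives a synthetase label to 101 unigenes, of which 55 are members and hold 0.0952% of reads, while 46 are not and hold 35.3%. Of those 46, 28 have a crystallin as best protein hit and hold 29.1% of reads, and all 28 carry the label of glutaminyl-tRNA synthetase. In diploid cataract all 28 had a negative change (median -0.47, against 0.027 for all unigenes) and 1 fell past limma's test, against 0.86% of all unigenes; on RPKM as deposited 26 were negative (median -0.18, against 0.284) and 9 fell, against 1.1%. In triploid cataract 17 of 28 were negative on the scaled values (median -0.03) and 13 as deposited (median 0.004), and none passed limma's test (0 had an unadjusted p below 0.05 on the scaled values); the interaction was positive for all 28 scaled and 25 as deposited, against 48.3% and 21.7% of all unigenes, and none passed it (3 had an unadjusted p below 0.05 on the scaled values). The slope on connexin 43 was negative and passed the test for all 28 on the scaled values and for 24 as deposited, against 19.7% and 1.54% of all unigenes. The glutaminyl contigs among the members stood at -0.11 (CL3879.Contig1) and -0.26 (Unigene6455) in diploid cataract on the scaled values, and at 0.18 and 0.02 as deposited, and neither passed on either scale. A synthetase total taken from that column would thus be mostly crystallin reads. The column labels 2 further unigenes as asparaginyl-tRNA synthetase (Unigene8617, 12.8 RPKM, and CL98.Contig2, 2.74 RPKM) whose best hit is named syncoilin, and no member is named for asparagine. It also labels CL1103.Contig1 as tryptophanyl-tRNA synthetase, whose best hit is an unnamed protein product. That unigene averaged 41.7 RPKM, above the 27.3 RPKM of the tryptophanyl member (Unigene3062), and was not counted as a member. The matches behind these labels had E-values, where smaller is closer, of 0 for Unigene8617 and CL98.Contig2 and 8e-86 for CL1103.Contig1. For the 28 unigenes with a crystallin as best hit the E-values of the label ran from 2e-15 to 4e-06. Whether Unigene8617, CL98.Contig2 and CL1103.Contig1 encode the labelled enzymes was not tested.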
